A study of Mus musculus with 94 samples.

Results

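The p53 target genes are the genes that the transcription factor p53 switches on when a cell is stressed, together with the gene for p53 itself (Trp53). The 32 genes followed here were picked by symbol, and each symbol was looked up in the row names of 4 deposited count tables. All 32 were found in each table, out of 24767 genes named in at least 1 of them, and all 32 had enough reads to be tested in every comparison. By role, 2 are p53 and its feedback inhibitor, 7 act in cell cycle arrest and mitosis, 13 in apoptosis, 5 in DNA repair and nucleotide supply, and 5 in stress responses, metabolism and RNA control.

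p53 is made all the time and destroyed just as steadily by the ubiquitin ligase Mdm2. DNA damage, nucleolar stress or oncogene activity blocks that destruction, and the p53 that accumulates binds DNA as a tetramer and activates genes for arrest, repair and death. Mdm2 is itself one of those genes, so that the pathway restrains itself. In embryonic stem cells p53 is abundant, and it is also known to favour differentiation.

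The study removed cohesin, or a factor that unloads it, from differentiating mouse embryonic stem cells. RAD21 is a subunit of the cohesin ring that folds chromosomes into loops, and WAPL takes cohesin off chromatin. Each protein carried an FKBP degron tag, and dTAG-13, added at 500 nM, sends tagged protein to the proteasome. The same volume of DMSO served as the control. Of the 94 samples of the series, the 18 with gene counts are used here: 14 RNA-seq libraries of polyadenylated RNA and 4 PRO-seq libraries, which count RNA still being made by engaged polymerases.

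All groups shared the CAST/Ei x 129/Sv/Jae hybrid background, the ES cell type labelled Tsix-stop, growth on irradiated mouse embryonic fibroblast feeders before differentiation, and differentiation as embryoid bodies. In the WAPL-FKBP lines treatment ran for 3 days, either from day 4 to day 7 (clone H7 in 2 replicates and clone H2 in 1, for both DMSO and dTAG-13) or from day 7 to day 10 (clone H7 alone, 2 replicates of each). In the RAD21-FKBP lines treatment ran for 8 h and ended on day 10 for RNA-seq or day 7 for PRO-seq, with clones C4 and G9 giving 1 library of each treatment. Each line is thus represented by 1 or 2 clones, and untagged cells given dTAG-13 are not analysed here. Nothing in the labels says that replicates came from separate cultures, so p-values here reflect the spread of these libraries alone, and that spread may be technical.

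The promoters of the p53 targets are shown where they hold a close match to the p53 consensus, because these are the DNA letters through which p53 is known to act. The consensus is a 20-base palindrome of 2 adjacent decamers, each made of 3 purines, C, 2 bases that are A or T, G and 3 pyrimidines. The window ran from 250 bases before to 50 bases after each start site in RefSeq (GRCm38.p6), and 23 of the 32 genes were in that promoter table, with 35 promoters. A gene counts as holding a match if any of its promoters does. With no spacer and no mismatch allowed at the C and G cores, 4 of those 23 genes (17.4%) held a match with at most 2 mismatches, against 0.392% of 27025 genes. At up to 3 mismatches 8 of 23 genes (34.8%) held one, against 1.63% of all genes and 1.38% of 32851 promoters. The 4 closest follow, each read 5′ to 3′ on the gene's strand, with the 20-base match in capitals and 5 flanking bases on each side.
Cdkn1a: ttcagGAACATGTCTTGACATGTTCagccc
Ccng1: aggccAGACCTGCCCGGGCAAGCCTtggca
Gtse1: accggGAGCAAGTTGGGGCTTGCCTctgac
Ckap2: tctgaAGACATGTCCTGACTTGTCAagcct
Distances below are from the RefSeq start of the promoter that holds the match, which need not be the gene's main start. The Cdkn1a stretch is chr17:29090923-29090952 on the plus strand with 1 mismatch, and its match begins 51 bases before that start. The Ccng1 stretch is chr11:40755457-40755486 on the minus strand with 1 mismatch, 195 bases before the start. The Gtse1 stretch is chr15:85859940-85859969 on the plus strand with 1 mismatch, and it spans the start site. The Ckap2 stretch is chr8:22185998-22186027 on the minus strand with 2 mismatches, 203 bases before the start. Aen, Bbc3, Sesn1 and Trp53 each had a match with 3 mismatches. A match describes letters and not a bound site, and the absence of one, as for Mdm2, Eda2r and Polk, says only that these letters are not in this window.

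Library totals ranged from 8413212 to 35388461 counts, so that 3 counts corresponded to between 0.0848 and 0.357 CPM (counts relative to the library's scaled total), and these limits cover counting error only. CPM values compare 1 gene across libraries, not genes with each other. Degron tags act on protein, and the transcripts of the tagged genes stayed without a called change: Wapl differed by 0.02 ± 0.11 (log2 fold change, SE) over days 4 to 7 and Rad21 by 0.14 ± 0.06 in RAD21 RNA. The H2 libraries stood apart in Wapl, with 244 and 229 CPM against 757 to 922 in the H7 libraries of that table. The 6 pluripotency markers (Pou5f1, Nanog, Sox2, Zfp42, Esrrb and Klf4), which define the labelled cell type, were all present, and their summed level over the RNA libraries ran from 520 to 1749 CPM. In bulk RNA, fewer cells of a type and less RNA per cell cannot be told apart.

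**Figure D1:**
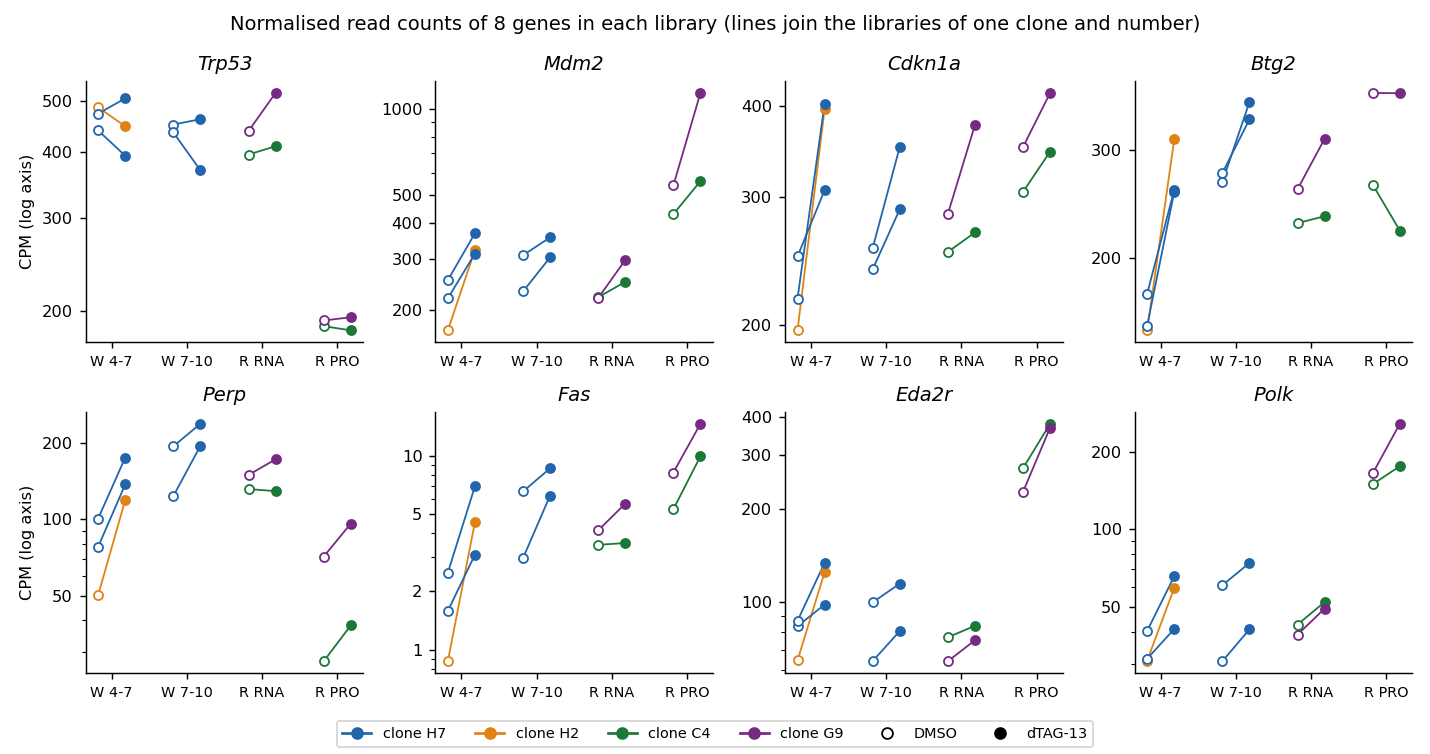
Normalised read counts (CPM, log axis) of 8 p53 target genes in each of the 18 libraries, by comparison: WAPL days 4 to 7 (W 4-7), WAPL days 7 to 10 (W 7-10), RAD21 RNA day 10 (R RNA) and RAD21 PRO-seq day 7 (R PRO). Open points are DMSO, filled points dTAG-13, and lines join libraries of the same clone and replicate number. In days 4 to 7 every dTAG-13 point of Mdm2, Cdkn1a, Btg2, Perp, Fas, Eda2r and Polk lies above every DMSO point, and Trp53 overlaps.

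Loss of WAPL from day 4 to day 7 came with higher transcript levels of 11 of the 32 p53 targets and with lower levels of none. Across all 14544 genes tested, 15.2% passed the same threshold (an adjusted p under 0.05 from the quasi-likelihood F-test of edgeR, adjusted by the Benjamini-Hochberg method), 9.46% higher and 5.73% lower. The genes that rose come from every role: the feedback inhibitor Mdm2, the arrest genes Cdkn1a, Btg2 and Plk2, the death genes Pmaip1, Perp, Fas and Eda2r, the repair genes Polk and Ercc5, and the epoxide hydrolase Ephx1. The median log2 fold change of the 32 was 0.32, beside -0.01 for all genes, and 28 of the 32 had a value above 0, beside 49.2% of all genes. In 15 of the 32 every dTAG-13 library was above every DMSO library, and in none was the order the reverse. The share of all tested genes with such an order was not counted, so this count is not a result about the 32 as a set.

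Trp53 itself stood at 474 and 440 CPM in the H7 DMSO replicates and 487 in H2, and at 507, 394 and 448 with dTAG-13. The groups overlapped, with a log2 fold change of -0.05 ± 0.12 (SE, adjusted p = 0.791). Mdm2, the ligase that p53 induces against itself, was at 219, 253 and 169 CPM with DMSO and 313, 369 and 322 with dTAG-13, in the same order of libraries. All dTAG-13 values were above all DMSO values, and the log2 fold change was 0.66 ± 0.13 (adjusted p = 0.0127).

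Cdkn1a encodes p21, which inhibits cyclin-dependent kinases, and read 217, 248 and 196 CPM with DMSO against 402, 306 and 395 with dTAG-13. The groups were apart, at a log2 fold change of 0.74 ± 0.14 (adjusted p = 0.0129). Btg2, an antiproliferative partner of the CCR4-NOT deadenylase, went from 155, 175 and 152 CPM to 256, 258 and 312, a log2 fold change of 0.77 ± 0.11 (adjusted p = 0.00545). The Btg2 libraries were tight within each group. Plk2, a polo-like kinase, read 183, 206 and 107 CPM with DMSO and 272, 310 and 228 with dTAG-13, with the H2 library lowest in both groups and no overlap. Its log2 fold change was 0.75 ± 0.13 (adjusted p = 0.00977). The other arrest and mitosis genes did not pass: cyclin G1 (Ccng1) had 0.42 ± 0.14 (adjusted p = 0.0815), the spindle proteins Ckap2 and Psrc1 had 0.29 ± 0.13 and 0.01 ± 0.10, and Gtse1, a microtubule-binding protein that restrains p53, had 0.16 ± 0.09.

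Of the 13 apoptosis genes, 4 rose, and these are 1 BH3-only protein, 1 desmosomal membrane protein and 2 receptors of the tumour necrosis factor family. Pmaip1 (Noxa), a BH3-only antagonist of Bcl-2 proteins, was at 105, 136 and 131 CPM with DMSO and 178, 227 and 252 with dTAG-13, a log2 fold change of 0.81 ± 0.14 (adjusted p = 0.00869). Perp, needed for desmosomes in epithelia, was at 77.9, 101 and 50.2 CPM against 137, 175 and 118.98, a log2 fold change of 0.95 ± 0.15 (adjusted p = 0.00758). Both genes were apart between the groups. The death receptor Fas was barely expressed, with 1.59, 2.50 and 0.873 CPM in DMSO and 3.09, 6.97 and 4.55 CPM with dTAG-13. The lowest Fas value rests on 7 counts, and the log2 fold change of 1.57 ± 0.37 (adjusted p = 0.0271) is the largest among the members with the widest error. Eda2r, a receptor for ectodysplasin A2, was at 83.4, 86.8 and 64.6 CPM against 98.1, 134 and 125, a log2 fold change of 0.61 ± 0.15 (adjusted p = 0.0308).

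Among the genes of the mitochondrial pathway, Bax, which permeabilises the outer membrane, had a log2 fold change of 0.07 ± 0.14, and the BH3-only gene Bbc3 (Puma) had -0.12 ± 0.15. Apaf1, the scaffold of the apoptosome, had 0.48 ± 0.14 with all dTAG-13 libraries above DMSO, and missed the threshold (adjusted p = 0.0542), while DESeq2 called it (adjusted p = 0.0273). Trp53inp1, a stress protein that feeds back on p53, had a large value with a large error, 0.88 ± 0.31 (adjusted p = 0.0908). Its dTAG-13 libraries read 214, 474 and 603 CPM against 168, 272 and 236 with DMSO, so that H7 replicate 1 fell inside the control range. The remaining 5 ran from 0.01 for Aen, an exonuclease, through Trim35 at 0.17, the TRAIL receptor Tnfrsf10b at 0.26 and the endoplasmic reticulum protein Ei24 at 0.29 to 0.33 for Phlda3, an inhibitor of Akt.

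In DNA repair, the translesion polymerase Polk was at 31.5, 40.4 and 31.0 CPM with DMSO and 41.1, 65.9 and 59.3 with dTAG-13, a log2 fold change of 0.69 ± 0.19 (adjusted p = 0.046). The groups were separated by less than 1 CPM, between H7 DMSO replicate 2 and H7 dTAG-13 replicate 1. Ercc5, the XPG endonuclease of nucleotide excision repair, rose by 0.36 ± 0.10 (adjusted p = 0.0451). The damage sensors of the same pathway, Ddb2 and Xpc, had 0.04 ± 0.13 and -0.11 ± 0.11, and the ribonucleotide reductase subunit Rrm2b had 0.40 ± 0.29. Among the last 5, Ephx1, which hydrolyses epoxides, was at 11.2, 11.8 and 9.60 CPM with DMSO and 25.8, 20.9 and 23.3 with dTAG-13. The groups were far apart, with a log2 fold change of 1.09 ± 0.14 and the smallest adjusted p among the members (0.00377). The adenylate kinase Ak1 had 0.32 ± 0.09 (adjusted p = 0.0516), the splicing regulator Zmat3 0.16 ± 0.10 and the sestrin Sesn1 0.02 ± 0.14. The stress cytokine Gdf15 had few reads, at 1.33 to 2.50 CPM (16 to 86 counts), with a value of -0.30 ± 0.29.

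Same-numbered libraries deviated together in this table, and with the replicate number as a block 18 of the 32 rose and none fell, while the share of all genes called was 27.5%. The 7 gained were Ccng1, Ckap2, Apaf1, Ei24, Trp53inp1, Phlda3 and Ak1. The count of 11 depends on single libraries. It was 5 without H7 DMSO replicate 1 (6.73% of all genes called) and 19 without H7 dTAG-13 replicate 1 (29.5%). It was also 5 without the clone term (6.83%), and 1 (Ephx1) without either H2 library or with H7 alone. When 1 H2 library is left out the clone term takes up the other, so those fits nearly repeat H7 alone. Those fits and H7 alone called 2.26%, 2.27% and 2.39% of all genes, and the median of the 32 was 0.30 in each. Ephx1 was called in 6 of the 6 fits that left out 1 library.

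**Figure D2:**
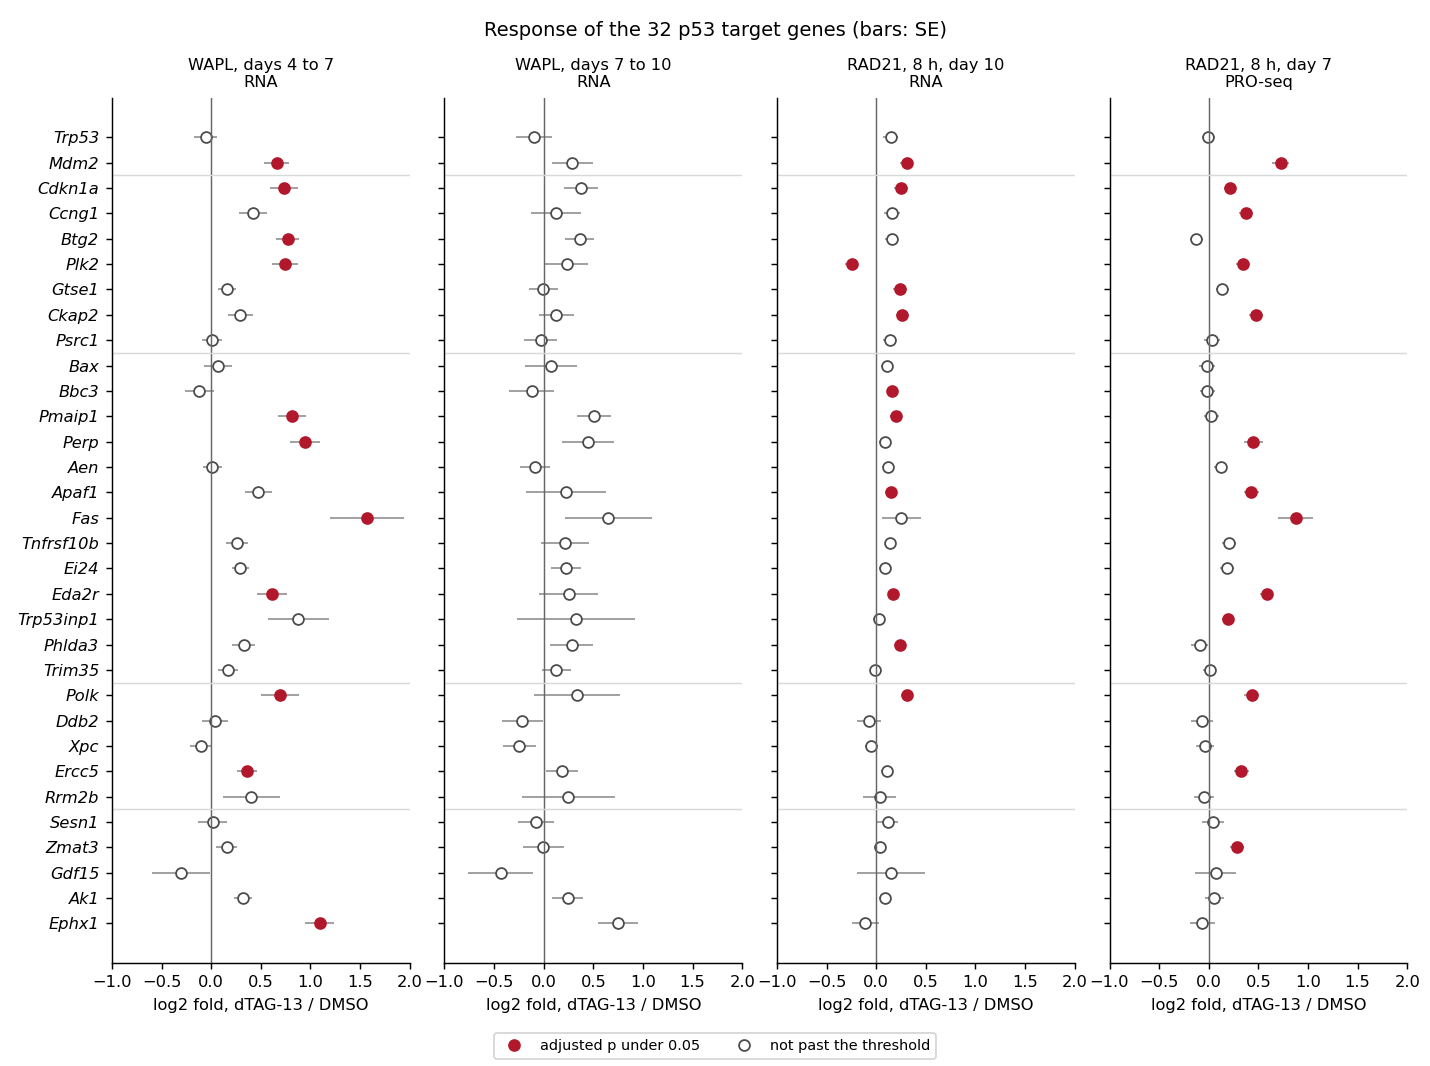
Log2 fold change of dTAG-13 over DMSO (horizontal axis) for the 32 p53 target genes (vertical axis, grouped by role) in 4 comparisons, with bars of 1 SE and filled points where the adjusted p is under 0.05. Filled points number 11, 0, 11 and 13 from left to right, and all but Plk2 in RAD21 RNA lie right of 0.

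Among the wider pathway, 31 other p53 targets were tested over days 4 to 7, and 6 rose and 1 fell, beside 9.46% and 5.73% of all genes. Those with small p included the peptide transporter Tap1 at 0.70 ± 0.11 (log2, SE), the xylulose reductase Dcxr at 0.65 ± 0.11, and Prkab1, a subunit of AMP-activated kinase, which fell by 0.49 ± 0.09. Of 19 regulators of p53, 1 rose and 2 fell, close to the 15.2% of all genes called. Cdkn2a, whose product Arf blocks Mdm2, was at 1.00 ± 0.14. The checkpoint kinase gene Chek2 was at -0.49 ± 0.11 and the ribosomal protein gene Rpl5 at -0.51 ± 0.13. Mdm4, the partner of Mdm2, is among those not called. In the p53 family Trp63 rose by 1.55 ± 0.43 from a mean of 0.304 CPM, and Trp73 was not called. None of 11 genes of the general apoptosis machinery passed, and of 15 genes repressed through p21 and the DREAM complex only Rrm2 did, at -0.68 ± 0.10.

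From day 7 to day 10, none of the 32 p53 targets passed the threshold by edgeR, and neither did any of 14110 genes (0%). A block for the replicate number changed both counts, as given below with the other settings. At an unadjusted p under 0.05 there were 2 members, Ephx1 and Pmaip1, and 926 genes in all. DESeq2 called 0 members and 0.283% of all genes. The values were mostly positive, 22 of 32 against 48.0% of all genes, with a median of 0.22 beside -0.01. That median depends on single libraries: it was 0.03 without DMSO replicate 1, 0.06 without dTAG-13 replicate 2, 0.26 without dTAG-13 replicate 1 and 0.30 without DMSO replicate 2. In 9 members both dTAG-13 libraries were above both DMSO libraries and in 3, Ddb2, Xpc and Gdf15, they were below. How many of all genes separate this way was not counted, so these counts do not set the 32 apart from other genes.

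Ephx1 read 14.0 and 14.5 CPM with DMSO and 26.8 and 21.1 with dTAG-13, a log2 fold change of 0.75 ± 0.20 (adjusted p = 0.689). Pmaip1 read 139 and 170 CPM against 207 and 231, at 0.51 ± 0.17. Cdkn1a read 255 and 238 CPM against 351 and 288, at 0.37 ± 0.17. These 3 were apart between the groups, as were Btg2 (266 and 275 CPM against 359 and 336), Perp, Ak1, Ei24, Ercc5 and Trim35. Mdm2 overlapped, with 231 and 309 CPM against 304 and 357, and replicate 2 was higher than replicate 1 in both groups. That order also held for Polk (30.9 and 60.8 CPM against 41.0 and 74.2), Fas, Eda2r, Apaf1 and Trp53inp1, the last at 139 and 373 CPM against 199 and 443. Trp53 was at 452 and 437 CPM against 462 and 370. Of the other lists none of the 31 other targets, 19 regulators, 11 apoptosis genes or 15 DREAM genes passed.

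**Figure D3:**
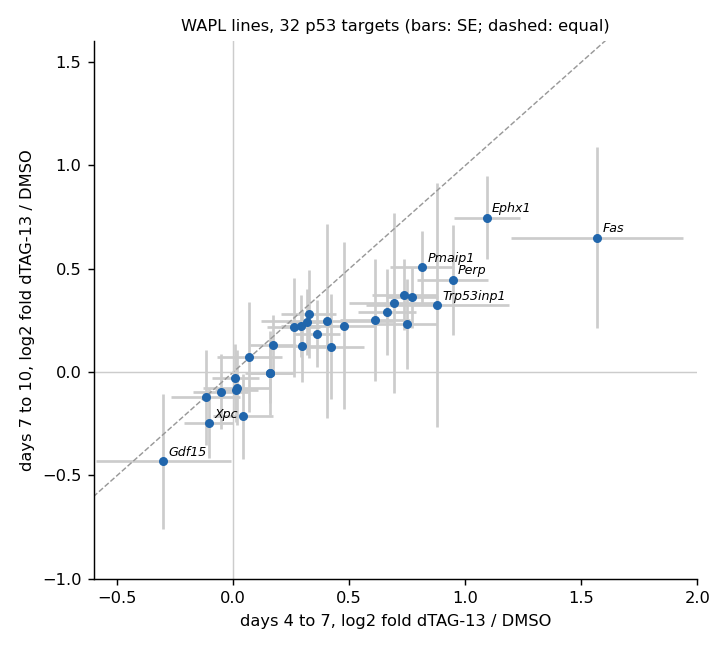
Log2 fold change of each p53 target gene after WAPL loss over days 4 to 7 (horizontal axis) and days 7 to 10 (vertical axis), with bars of 1 SE and a dashed line where both are equal. Most of the 32 points lie below the dashed line, and the gene with the largest value on the horizontal axis is Fas.

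Fitted together, the later response minus the earlier one was negative in 30 of the 32 p53 targets, with a median of -0.15 beside 0.00 for all 14326 genes. No member passed the test of that difference by edgeR (0% of all genes), 1 (Btg2, at -0.39 ± 0.17) had an unadjusted p under 0.05, and DESeq2 called 0 members. The values in the 2 windows had a correlation of 0.92 across the 32 genes and 0.77 across 13897 genes, points that share libraries within each window. Clone H2 is in the earlier window only. Without dTAG-13, day 10 was higher than day 7 for 2 of the 32. That is about the share of all genes called, 6% (4.47% higher and 1.53% lower). The 2 were Btg2 at 0.73 ± 0.12 (adjusted p = 0.0143) and Trim35, a tripartite-motif protein, at 0.46 ± 0.11 (adjusted p = 0.0443). Perp and Fas had 0.86 ± 0.23 and 1.32 ± 0.48 and were not called. Day and deposited table cannot be told apart here, and the count fell to 0 without H7 DMSO replicate 1 of the earlier window (1.37% of all genes). It was 1 without any other single library of the earlier window (1.17% to 4.64% of all genes). Leaving out a DMSO library of the later window leaves 1 there. The median of the 32 was then 0.22 without replicate 1 and 0.00 without replicate 2, beside 0.14 with all libraries.

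After 8 h of RAD21 loss at day 10, 10 of the 32 p53 targets rose at the RNA level and 1 fell. Among 14470 genes 18.7% were called, 9.83% higher and 8.89% lower. The risers lay between 0.15 and 0.31 on the log2 scale, and the median of the 32 was 0.14 beside 0.01 for all genes. Of the 32 values 27 were above 0, against 51.1% of all genes.

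Mdm2 read 221 CPM in C4 and 219 in G9 with DMSO, and 250 and 298 with dTAG-13, a log2 fold change of 0.31 ± 0.07 (adjusted p = 4.26e-05). The DMSO libraries of Mdm2 were nearly equal and both dTAG-13 libraries were above them. Trp53 was at 396 and 439 CPM against 411 and 519, at 0.15 ± 0.08 (adjusted p = 0.194). Cdkn1a went from 252 to 268 CPM in C4 and from 284 to 376 in G9, at 0.25 ± 0.07 (adjusted p = 0.0034), so that the C4 library with dTAG-13 lay below the G9 control. The mitotic genes Gtse1 and Ckap2 rose by 0.24 ± 0.07 and 0.26 ± 0.07, and for both the groups were apart. Plk2 fell from 205 to 172 CPM in C4 and from 218 to 185 in G9 (-0.25 ± 0.06, adjusted p = 0.000698), with pair ratios of -0.26 and -0.24.

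The apoptosis genes gave 5 calls of 13: Bbc3 at 0.16 ± 0.06, Pmaip1 at 0.20 ± 0.06, Apaf1 at 0.15 ± 0.06, Eda2r at 0.17 ± 0.06 and Phlda3 at 0.24 ± 0.06. Of these Pmaip1 (125 and 101.9 CPM against 133 and 127) and Apaf1 (101 and 104 CPM against 116 and 110) were apart between groups, and in the other 3 the groups overlapped. Perp and Fas, which rose after WAPL loss, had 0.09 ± 0.06 and 0.25 ± 0.20. In repair, Polk rose from 42.8 to 52.3 CPM in C4 and from 39.1 to 49.4 in G9, a log2 fold change of 0.31 ± 0.06 (adjusted p = 2.65e-05), and Ddb2, Xpc, Ercc5 and Rrm2b ran from -0.08 to 0.11. None of the stress and metabolism genes passed, and Ephx1 had -0.11 ± 0.13.

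With 4 libraries and a term for clone, 1 residual degree of freedom was left, and the errors lean on the spread shared by all genes. DESeq2 called 0 of the 32, beside 3.29% of all genes, and the fit without a clone term 0, beside 0.00691%. Library totals in place of composition scaling gave 7 members, beside 13.9% of all genes. Leaving out 1 of the 4 libraries (C4 DMSO, C4 dTAG-13, G9 DMSO or G9 dTAG-13) leaves 1 library in a group, so only effect sizes are given for those fits. In the fits without 1 library, which also lack the clone term, the median of the 32 ran from 0.04 without G9 dTAG-13 to 0.21 without C4 dTAG-13, and Cdkn1a ran from 0.00 to 0.48 while Mdm2 ran from 0.18 to 0.43 and Polk from 0.25 to 0.38.

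In the wider pathway, 7 of 31 other targets rose and 5 fell, beside 9.83% and 8.89% of all genes. Calls in these lists rest on the same 1 residual degree of freedom, and DESeq2 called 3.29% of all genes. Those with small p included Igfbp3, a binding protein of insulin-like growth factors, which fell by 1.91 ± 0.07, and the small GTPase Rap2b (0.34 ± 0.06) and thrombospondin Thbs1 (0.39 ± 0.07), which rose. Of the 15 DREAM genes 7 rose and 1 fell, led by the mitotic genes Cdc25c (0.36 ± 0.06), Cdc20 (0.31 ± 0.07) and Foxm1 (0.26 ± 0.06), with E2f1 at -0.26 ± 0.07. Of 19 regulators 1 rose and 2 fell, no larger a share than the 18.7% of all genes called. The acetyltransferase gene Crebbp rose (0.19 ± 0.06), and the damage kinase gene Atm (-0.24 ± 0.06) and Rpl11 (-0.23 ± 0.07) fell. In the apoptosis machinery 2 of 11 fell, the BH3-only genes Bcl2l11 by 1.17 ± 0.06 and Bid by 0.18 ± 0.06.

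At day 7, PRO-seq after 8 h of RAD21 loss showed more engaged polymerase on 13 of the 32 p53 targets and less on none. Among 16498 genes 10.7% were called, 5.96% higher and 4.73% lower. The median of the 32 was 0.13 beside 0.00 for all genes, and 23 values were above 0, against 49.4% of all genes. In 12 members both dTAG-13 libraries were above both DMSO libraries and in none below. The share of all genes with that order was not counted, so the 12 have no background to be read against.

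Mdm2 was transcribed at 430 CPM in C4 and 541 in G9 with DMSO, and at 560 and 1137 with dTAG-13. The groups were apart and the G9 library with dTAG-13 was far above the rest, at a log2 fold change of 0.72 ± 0.09 (adjusted p = 2.06e-07). Trp53 read 187 and 192 CPM against 184 and 195, with 0.00 ± 0.07. Cdkn1a went from 305 to 346 CPM in C4 and from 351 to 416 in G9, at 0.21 ± 0.06 (adjusted p = 0.0228), and the groups overlapped. Ccng1 went from 211 and 213 CPM to 254 and 300 (0.38 ± 0.07), and Ckap2 from 205 and 190 to 264 and 286 (0.47 ± 0.07), both without overlap. Plk2, lower in RNA at day 10, was here higher in both clones, from 101 and 141 CPM to 122 and 189 (0.34 ± 0.07, adjusted p = 0.00135). That difference in direction was not tested, since the assays differ in day and in what they count. Btg2 went from 263 to 221 CPM in C4 and stayed at 371 in G9.

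Fas had the largest log2 fold change of the 32, 0.87 ± 0.18 (adjusted p = 0.00109), from 5.32 and 8.23 CPM to 9.99 and 14.7. Eda2r went from 273 and 228 CPM to 380 and 370 (0.58 ± 0.07, adjusted p = 8.79e-08). Both receptors were apart between the groups. Perp rose by 0.45 ± 0.09 in spite of a wide gap between clones, from 27.6 to 38.2 CPM in C4 and from 71.3 to 96.1 in G9. Apaf1 went from 181 and 201 CPM to 214 and 310 (0.43 ± 0.07), and Trp53inp1 rose by 0.20 ± 0.06. Bax, Bbc3 and Pmaip1 had -0.02 ± 0.08, -0.01 ± 0.07 and 0.03 ± 0.08.

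Polk went from 150 and 165 CPM to 176 and 257 (0.43 ± 0.08, adjusted p = 0.000163), Ercc5 from 118.6 and 131 CPM to 140 and 176 (0.33 ± 0.07), and Zmat3, the RNA-binding splicing regulator, from 240 and 217 CPM to 271 and 287 (0.29 ± 0.07). All 3 were apart between the groups. Ddb2, Xpc and Rrm2b had -0.07, -0.04 and -0.04, and Ephx1, Gdf15, Ak1 and Sesn1 ran from -0.06 to 0.07. DESeq2 called 7 of the 13 (Ccng1, Plk2, Ckap2, Perp, Apaf1, Eda2r and Polk), beside 3.04% of all genes. The fit without a clone term called none of the 32, and 0% of all genes. Leaving out 1 of the 4 libraries (C4 DMSO, C4 dTAG-13, G9 DMSO or G9 dTAG-13) leaves 1 library in a group, so only effect sizes are given. In those fits the clone term had to be dropped, and Perp then turned to -0.09 without C4 DMSO and -0.37 without G9 dTAG-13. The lowest and highest values in those fits were 0.21 and 1.23 for Mdm2, 0.08 and 0.34 for Cdkn1a, 0.01 and 0.64 for Plk2, 0.04 and 0.34 for Trp53inp1, and 0.46 and 0.71 for Eda2r, and the median of the 32 was 0.07 without G9 dTAG-13 and 0.20 without C4 dTAG-13.

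Among the other 31 targets 8 rose and 3 fell, beside 5.96% and 4.73% of all genes. Here too 1 residual degree of freedom was left, and DESeq2 called 3.04% of all genes. Igfbp3 (-1.41 ± 0.18) fell, and Zfp365 (0.56 ± 0.10) and the drug exporter Abcb1a (0.61 ± 0.13) rose. Mdm4, which blocks the p53 activation domain, was the one regulator of 18 tested that was called, at 0.27 ± 0.07, and the p53 relative Trp73 rose by 0.60 ± 0.09, from a mean of 49.5 to 75.01 CPM. Bcl2l11 (-0.64 ± 0.07) fell among 9 genes of the apoptosis machinery, and Rrm2 (0.23 ± 0.08) rose among the 15 DREAM genes.

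**Figure D4:**
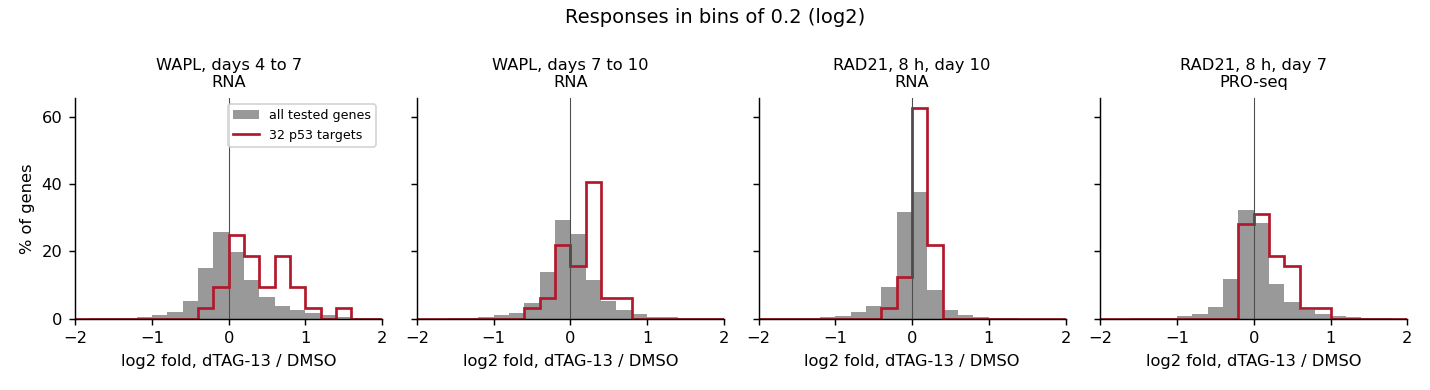
Distribution of log2 fold changes (horizontal axis, bins of 0.2) as a percentage of genes (vertical axis) for all tested genes (grey) and the 32 p53 targets (red line) in 4 comparisons. The red line is shifted to the right of the grey in each panel, with medians of 0.32, 0.22, 0.14 and 0.13; without 1 library the lowest medians were 0.28, 0.03, 0.04 and 0.07.

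Across the 3 comparisons with any call by edgeR, which share no libraries, Mdm2, Cdkn1a, Eda2r and Polk rose in all 3. Another 7 members rose in 2, 8 in 1, and 13 in none. DESeq2 called 0 of the 32 in RAD21 RNA, beside 3.29% of all genes. In PRO-seq it called Eda2r and Polk but not Mdm2 or Cdkn1a. The same tally over all genes was not made, so these counts stand without a background. The RAD21 comparisons share their clones but differ in day and assay. Of the 11 that rose over days 4 to 7 of WAPL loss, 8 (72.7%) also rose in RAD21 PRO-seq, where they were 61.5% of 13. Among all genes tested in both, the shared risers were 24.3% of the former and 36.3% of the latter. With RAD21 RNA the WAPL risers shared 5 genes, 45.5% of 11 and 50% of 10 (all genes, 29.4% and 27.5%), and the 2 RAD21 assays shared 6, 60% of 10 and 46.2% of 13 (all genes, 23.5% and 38.1%). Across the 32, log2 fold changes over days 4 to 7 correlated at 0.53 with PRO-seq and 0.07 with RAD21 RNA. The 2 RAD21 assays correlated at 0.37. Across all genes these values were 0.39, 0.20 and 0.38. The 13 members with no rise include Trp53, Bax, Aen, Ddb2, Xpc, Rrm2b, Sesn1 and Gdf15. Of the 4 genes whose promoter matches are printed above, Cdkn1a rose in 3 comparisons, Ckap2 in 2, and Ccng1 and Gtse1 in 1.

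The p53 targets were also compared within each RAD21 clone. In RNA the median pair ratio of the 32 was 0.05 in C4, with 22 above 0, and 0.19 in G9, with 26 above 0. The all-gene medians were 0.00 and 0.01, with 49.2% and 51.6% of all genes above 0. In PRO-seq the medians were 0.11 in C4, with 25 above 0, and 0.15 in G9, with 23 above 0, so that the count did not follow the same order as in RNA. There the all-gene medians were -0.004 and -0.002, with 49.1% and 49.7% of all genes above 0. Mdm2 had the widest gap in PRO-seq, with pair ratios of 0.38 in C4 and 1.07 in G9, and Polk (0.23 and 0.64) and Apaf1 (0.24 and 0.62) lay the same way. Fas (0.85 and 0.80) and Perp (0.46 and 0.43) were close. With 1 library of each clone and treatment the difference between clones in response has no replicate and was not tested.

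**Figure D5:**
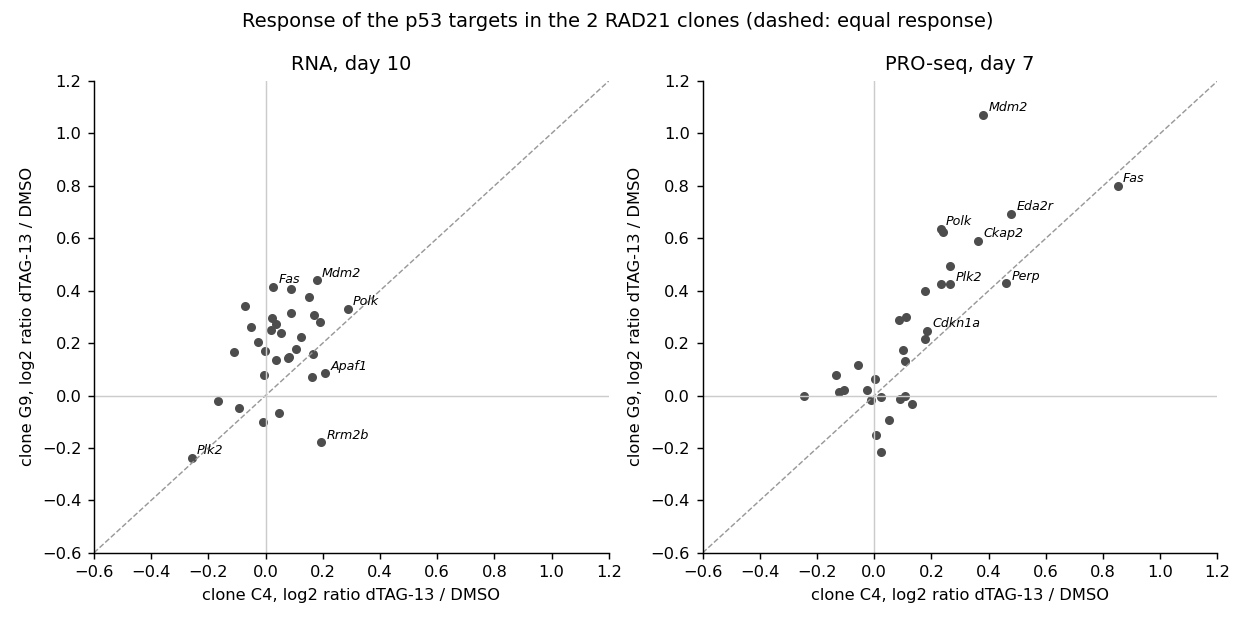
Log2 ratio of dTAG-13 to DMSO for each p53 target gene in RAD21 clone C4 (horizontal axis) and clone G9 (vertical axis), for RNA at day 10 and PRO-seq at day 7; the dashed line marks equal ratios. Mdm2 in PRO-seq lies far above the line (0.38 and 1.07), and Fas lies close to it (0.85 and 0.80).

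The clones also differed in level, over both treatments. In RNA, 15 of the 32 were called, close to the 43.2% of all genes called, so that count does not set the members apart. G9 was higher than C4 for 10 of them and lower for 5 (all genes, 21.2% and 22%). In PRO-seq 17 were called, beside 34.9% of all genes, with 14 higher and 3 lower (all genes, 17.9% and 17%). Perp had the widest gap in PRO-seq, 1.35 ± 0.09 (log2, G9 over C4), with Mdm2 at 0.68 ± 0.09, Btg2 at 0.62 ± 0.07 and Plk2 at 0.55 ± 0.07, while Gdf15 (-0.94 ± 0.21), Ephx1 (-0.76 ± 0.13) and Xpc (-0.58 ± 0.09) were lower in G9. In RNA, Cdkn1a (0.33 ± 0.07) and Phlda3 (0.33 ± 0.06) were among those higher, and Ephx1 (-0.35 ± 0.13) was lower. With 1 library left out, the treatment term had to be dropped as well, and the effects of these changes cannot be told apart. Without C4 DMSO, C4 dTAG-13, G9 DMSO or G9 dTAG-13 the median of the 32 was 0.06, 0.10, 0.15 and -0.02 in RNA. In PRO-seq it was 0.11, 0.21, 0.21 and 0.05. With all libraries the medians were 0.09 and 0.15. Between the WAPL clones H2 and H7 no member was called by edgeR, beside 3.91% of all genes (1.77% higher in H2 and 2.15% lower). At an unadjusted p under 0.05 there were 5, beside 21.9% of all genes, and DESeq2 called 2 (7.26% of all genes), both lower in H2. The count was 2 without H7 dTAG-13 replicate 1 (9.12%) or replicate 2 (9.48%).

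Markers of other cell types moved along with some of these results, and their part in the results was not tested. Over days 4 to 7 of WAPL loss, 8 of 15 tested fibroblast and feeder genes rose and 1 fell, beside 9.46% and 5.73% of all genes. The risers were led by the collagens Col6a1 (1.23 ± 0.18) and Col1a2 (0.93 ± 0.15), smooth muscle actin Acta2 (2.38 ± 0.38) and decorin Dcn (1.15 ± 0.21). The 16-gene sum was 409 to 718 CPM with DMSO and 1054 to 1405 with dTAG-13, and lumican (Lum) stayed at or under 0.231 CPM. Acta2 (33.9 to 133 CPM against 354 to 503) and Tagln (199 to 388 CPM against 445 to 656) held much of that sum. Of the 15 values 13 were positive and 2 negative, and Thy1 was lower with dTAG-13 (25.4 to 33.7 CPM against 12.5 to 17.9). Of 6 trophoblast genes 3 rose, the keratins Krt18 (1.35 ± 0.15) and Krt7 (1.64 ± 0.20) and Hand1 (1.28 ± 0.15), which is also in the mesoderm list. The sum of the 6 went from between 256 and 395 CPM to between 719 and 898. Krt18 held most of that sum, at 225 to 338 CPM against 621 to 808. Mesoderm genes gave 3 up and 2 down of 6, endoderm 1 and 1 of 5, neural genes 1 and 1 of 5, blood and endothelium 0 and 1 of 5, and pluripotency genes 0 and 1 of 6 (Sox2, -0.51 ± 0.10).

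In the later WAPL window no marker passed, and neither did any other gene. The summed levels of 6 of the 7 lists did not overlap between the groups. With 2 libraries of each treatment such an order is a weak sign, and how often other genes show it was not counted. The fibroblast sum was 1060 to 1327 CPM with DMSO and 1621 to 1747 with dTAG-13, and the trophoblast sum 981 to 1108 CPM against 1462 to 1700. Acta2 (248 to 354 CPM against 521 to 526) and Tagln (501 to 528 CPM against 641 to 857) held much of the former. Krt18 (837 to 926 CPM against 1250 to 1503) held most of the latter. Of the 6 trophoblast values 4 were positive and 2 negative, with Tfap2c at 44.6 to 51.4 CPM against 37.6 to 39.0. The sums were lower with dTAG-13 for pluripotency genes (1236 to 1602 CPM against 858 to 1217, with all 6 genes negative), neural genes (270.2 to 297 CPM against 206 to 208), endoderm (74.9 to 99.1 CPM against 54.7 to 62.3) and blood and endothelium (43.6 to 60.7 CPM against 37.4 to 40.0). The mesoderm sum overlapped. In RAD21 RNA, where 9.83% of all genes rose and 8.89% fell, all 6 pluripotency genes fell, with the smallest p for Sox2 (-0.75 ± 0.06). The fibroblast list gave 3 up and 3 down of 15, with a sum of 1249 to 1252 CPM against 1522 to 1578. Acta2 (361 to 367 CPM against 501 to 519) and Tagln (399 to 404 CPM against 515 to 589) held much of that sum. The median log2 fold change of the list was 0.00. The other lists there gave 0 up and 3 down of 6 for mesoderm, 0 and 2 of 5 for endoderm, 0 and 1 of 5 for neural, 2 and 3 of 6 for trophoblast and 0 and 3 of 6 for blood and endothelium. In RAD21 PRO-seq, where 5.96% of all genes rose and 4.73% fell, 5 of 6 pluripotency genes fell, with the smallest p for Nanog (-0.77 ± 0.10). Acta2 alone rose of 13 fibroblast genes (0.59 ± 0.12), and the sum of the list overlapped between groups, 192 to 304 CPM against 200.5 to 302 CPM. There mesoderm gave 0 up and 2 down of 6, endoderm 0 and 2 of 5, neural genes 2 and 1 of 5, trophoblast 0 and 1 of 6 and blood and endothelium 0 and 1 of 5, with Hbb-bh1 at 0 in all 4 libraries.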

How the data were processed

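The members and gene lists were chosen with earlier results of these data known. The authors deposited 3 RNA tables of raw read counts per gene and 1 PRO-seq table of expected counts per gene, which move in steps of 0.5 and were rounded to whole numbers before fitting. Per the submitters' processing notes, the tools of the series include HOMER, TopHat2, DESeq2, Bowtie2 and Novoalign, and its builds are dm6, hg19 and mm9, with no role stated. Which tool counted these reads, and whether by strand, is not given in the sources used here, so reads of overlapping or antisense genes cannot be told apart.

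Each table was fitted with edgeR 4.0.16 in R 4.3.3 (quasi-likelihood F-test, TMM scaling, filterByExpr by group with a minimum count of 10, Benjamini-Hochberg adjustment over all tested genes, threshold 0.05). Terms were treatment and, where 2 clones were present, clone. The SE is the log2 fold change divided by the square root of F. In the days 4 to 7 table, deviations from the group means correlated at 0.61, 0.64 and 0.73 between same-numbered libraries (the number comes from the labels for H7, and H2 is its own pair), so the blocked count is given beside the result. In the RAD21 sets, same-clone libraries correlated at 0.80 (RNA) and 0.83 (PRO-seq). No libraries of a group were identical. Residual degrees of freedom were 3, 2, 1 and 1 in the 4 treatment comparisons and 5 in the joint fit of the WAPL tables. The fits were tested on simulated data. Alternatives were other scaling, other filters, DESeq2 1.42.0, the replicate block, dropping the clone term, H7 alone, and leaving out each library. All 32 members are named, and from each other list, in the treatment comparisons, up to 4 called genes by smallest p (of cell type lists, fewer), and some of these are not reported here. Promoters came from RefSeq (GRCm38.p6). ChIP, Hi-C and CHART samples were not used here. Figures were drawn with matplotlib 3.10.9.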

Additional observations from a re-analysis of the deposited data

How the results depend on the processing

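Over days 4 to 7 the count of 11 called p53 targets became 18 with the replicate block (27.5% of all genes), 5 with no clone term (6.83%) and 1 with clone H7 alone (2.39%). It ran from 1 to 19 when 1 library was left out (2.26% to 29.5% of all genes). For days 7 to 10 the count of 0 became 18 (17 higher and Xpc lower) with the replicate block, which called 36.4% of all genes. Those 2 pairs share only a number, and their deviations correlated at 0.89. For RAD21 RNA the count of 11 (18.7% of all genes) became 7 with library totals (13.9%), 0 with DESeq2 (3.29%) and 0 with no clone term (0.00691%). For RAD21 PRO-seq the count of 13 (10.7% of all genes) became 7 with DESeq2 (3.04%) and 0 with no clone term (0%). In the fits without 1 library Perp reversed among the members called there, running from -0.37 (with -0.09 next) to 1.28. Plk2 came down to 0.01 and Trp53inp1 to 0.04 in those fits. The difference between the WAPL windows gave 0 called members in every alternative, the replicate block included. Day 10 against day 7 gave 0 to 2 without 1 library, H2 against H7 gave 2 with no filter, 2 with DESeq2 and 0 to 2 without 1 library. G9 against C4 gave 6 in RNA and 10 in PRO-seq with DESeq2, and 0 to 1 and 1 to 9 without 1 library. The causes were not tested beyond the fewer libraries of the last kind of fit. In the RAD21 sets a library could be left out only with the other term dropped (clone in the treatment fits, treatment in the clone fits). A member at the level of Gdf15 or Fas is limited by depth.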

Other observations

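The 15 genes repressed through p21 and the DREAM complex, mostly genes of mitosis and DNA replication, did not share a direction between the WAPL and RAD21 comparisons. After WAPL loss 13 of 15 had negative values over days 4 to 7 and 15 of 15 over days 7 to 10, with medians of -0.18 and -0.23 (log2) beside -0.01 and -0.01 for all genes. After RAD21 loss 12 of 15 were positive in RNA, with a median of 0.14 beside 0.01, and 10 of 15 in PRO-seq, with a median of 0.04. Of the 15, 1 fell over days 4 to 7, none was called over days 7 to 10, 7 rose and 1 fell in RAD21 RNA, and 1 rose in PRO-seq. The shares of all genes called were 15.2%, 0%, 18.7% and 10.7%. Of all genes 49.2% and 48.0% had positive values in the WAPL windows, and 51.1% and 49.4% in RAD21 RNA and PRO-seq. The protein lost and the treatment time (3 days against 8 h) cannot be told apart here, and PRO-seq is also another assay. The difference between the comparisons was not tested.

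Among p53 targets outside the 32, Igfbp3 went from a mean of 330 ± 11.3 CPM (SD, n = 2) to 87.9 ± 14.3 in RAD21 RNA at day 10.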
